A study of Mus musculus with 12 samples.

Results

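The genes described here make up the route by which peptides from inside a cell reach its surface on MHC class I. The 10 members are H2-K1, H2-D1, B2m, Tap1, Tap2, Tapbp, Psmb8, Psmb9, Erap1 and Nlrc5, chosen by name and found by their Ensembl IDs among 47643 gene IDs. Their RNA was measured as read counts in 12 libraries of mouse bone marrow cells, with 6 groups of 2 libraries each. The groups were Nr4a3 KO monocytes, KO cells after 1 day and KO cells after 2 days of culture with GM-CSF and IL-4, and WT monocytes, WT cells after 1 day and WT cells after 2 days of the same culture. All mice were on a C57BL/6 background, and neither the structure of the KO allele nor the number of mice behind a library is given in the labels. GM-CSF with IL-4 turns monocytes into dendritic-like cells, and the study asked what the orphan nuclear receptor NR4A3 contributes to that step. The labels call the paired libraries independent experiments but do not name the animals, so the p-values below measure the spread between these libraries only.

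In the class I pathway the proteasome cuts cytosolic proteins into peptides. Under interferon the catalytic subunits PSMB8 and PSMB9 replace constitutive ones and form the immunoproteasome. The TAP1 and TAP2 heterodimer pumps peptides into the endoplasmic reticulum, where tapasin (Tapbp) bridges TAP to empty class I molecules and the aminopeptidase ERAP1 trims peptides to length. A class I molecule is a heavy chain, here H2-K or H2-D, paired with beta-2-microglobulin (B2m). NLRC5 is the transactivator that raises transcription of most of these genes through the conserved enhanceosome of class I promoters. Dendritic cells use the pathway to prime CD8 T cells, both with their own proteins and, by cross-presentation, with proteins taken up from outside.

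Of the 10 genes, 7 lie on chromosome 17 in the MHC region (GENCODE M21 annotation of GRCm38). Psmb9 (minus strand), Tap1, Psmb8 and Tap2 (plus strand) sit side by side in a block of 34.3 kb, chr17:34181987-34216321. Tapbp (chr17:33915899-33929292, plus strand) and H2-K1 (chr17:33996017-34000347, minus strand) lie on its one side, and H2-D1 (chr17:35262730-35267499, plus strand) on its other. B2m is at chr2:122147686-122153083, Erap1 at chr13:74639568-74693201 and Nlrc5 at chr8:94434356-94527272, all on the plus strand. H2-K1 and H2-D1 are close paralogs: 8.79% of the 50-base windows of the H2-K1 transcript and 14.3% of those of H2-D1 occur in another gene, among them other class I genes, so some of their reads may have been dropped as multimapping or counted for a relative. Exons of Tap1 and Psmb9 overlap on opposite strands, and Tapbp shares exon bases with Zbtb22 on its own strand.

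RefSeq promoter windows (GRCm38.p6, from 250 bases before to 50 bases after the start) were matched for 8 members, all but Tap2 and Nlrc5. They were searched on both strands for TGACG (core letters of the CREB/ATF site), for CCAAT (the Y box, bound by NF-Y) and for the core of the interferon-stimulated response element, in which GAAA occurs again after any 2 bases. No matches overlapped. TGACG was present in 5 of the 8 windows (H2-K1, H2-D1, B2m, Tap1 and Psmb9), against 20.8% of 32851 windows genome-wide, and CCAAT in those 5 and Tapbp, against 37.4%. The spaced GAAA repeat was present in B2m and Erap1, against 3.4%, and the B2m window held each of the motifs, as did 0.21% of all windows. These are matches of letters and do not show that a factor binds. The H2-K1 and H2-D1 windows were identical at 211 of 240 aligned positions (87.9%). The starts of Psmb9 and Tap1 are 226 bases apart and point away from each other, so the stretch printed for Tap1 also lies in the Psmb9 window. The stretches below are written 5′ to 3′ along the gene's strand, with motif matches in capitals. They come from the windows of H2-K1, H2-D1, B2m and Tap1, which hold TGACG and CCAAT, and of Erap1, which holds neither. Whether these letters bear on the changes over culture was not tested. Tapbp, which holds CCAAT, was not called at day 1. A Y box on the other strand reads ATTGG, and the response element of Erap1 also lies on the other strand.
H2-K1, chr17:34000321-34000403, minus strand: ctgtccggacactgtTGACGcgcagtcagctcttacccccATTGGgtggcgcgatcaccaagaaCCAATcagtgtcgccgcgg
H2-D1, chr17:35262978-35263060, plus strand: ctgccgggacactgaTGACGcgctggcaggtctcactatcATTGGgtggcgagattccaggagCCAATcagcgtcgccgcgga
B2m, chr2:122147533-122147653, plus strand: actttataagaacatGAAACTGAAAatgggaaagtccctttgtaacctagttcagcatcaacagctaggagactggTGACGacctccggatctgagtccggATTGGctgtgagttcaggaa
Tap1, chr17:34187319-34187489, plus strand: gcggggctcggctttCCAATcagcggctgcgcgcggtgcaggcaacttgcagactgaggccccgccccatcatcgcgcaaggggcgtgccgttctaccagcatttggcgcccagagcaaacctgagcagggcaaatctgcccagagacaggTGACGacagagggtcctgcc
Erap1, chr13:74639834-74639872, plus strand: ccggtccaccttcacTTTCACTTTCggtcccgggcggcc

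Between 5905266 and 18447405 reads per library were assigned to genes. Summed levels of 6 monocyte markers were 8260 to 10600 CPM (read counts scaled to the size of the library, with TMM factors) in monocytes, 3240 to 3490 at day 1 and 659 to 2360 at day 2, and those of 6 markers of monocyte-derived dendritic cells were 179 to 225, 9100 to 11600 and 27600 to 33500 CPM. Nr4a3 was at 39.0 and 19.3 CPM in KO day 2 cells, against 1290 and 1360 CPM in WT day 2 cells, and at 6.58 and 0 CPM in KO day 1 cells, against 16.5 and 10.4 CPM in WT day 1 cells. The day 2 libraries thus differ in the direction their labels give, with a log2 fold change of -5.51 that edgeR did not call (adjusted p = 0.389). The labels of the monocyte and day 1 libraries could not be checked in this way, since Nr4a3 was low in all of them. The library labelled KO day 1 replicate 1, which of the KO day 1 libraries is the one with reads of Nr4a3, stood apart from the other day 1 libraries, with a score of 1.59 on the first principal component (52.9% of variance) against 38.4 to 46.7 in the others and -140 to -116 in monocytes. The monocyte marker Ly6c2 was at 298 CPM in that library and at 28.9 to 60.5 CPM in the other day 1 libraries. WT monocytes replicate 2 had 8.93% of reads in ribosomal protein genes, against 4.18 to 5.17% in the other monocyte libraries, and a summed neutrophil marker level of 4520 CPM, against 1290 to 2340 CPM. Xist was at 794 CPM in KO and 885 CPM in WT day 2 replicate 1 and at most 1.01 CPM in the other 10 libraries. The Y-linked gene Ddx3y was at 0.167 and 0 CPM in that pair and at 34.5 to 98.2 CPM in the other 10. Sex-linked RNA of the first day 2 pair thus differed from that of every earlier library, and its part in the day 2 values was not tested. Values without KO day 1 replicate 1 and WT monocytes replicate 2, below called both libraries that stood apart, are given beside the counts and calls that they change. That fit leaves a lone library of KO day 1 cells and a lone library of WT monocytes. As in fits with 1 library left out, a lone library is assumed to vary like the others. The share of all genes called changes in such fits too. Day 2 cells came from other experiments than the monocytes and day 1 cells, so the second day of culture and the change of experiment cannot be told apart. In bulk RNA, fewer cells of a type and less RNA per cell cannot be told apart either.

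Each member passed the filter on low counts, with 322 to 31697 reads per library. On the RPKM scale, which divides CPM by the joined length of all annotated exons, B2m was the most abundant member in every group, H2-D1 the next and H2-K1 after it, with no overlap between their libraries. In KO monocytes these were 1733 ± 101, 830 ± 59.4 and 347 ± 35.3 RPKM, and in WT monocytes 2541 ± 1424, 699 ± 132 and 345 ± 90.9 RPKM (SD, n = 2). Tapbp and Psmb8 came next, and their libraries overlapped in 5 of the 6 groups, WT day 1 being the exception. The places of Psmb8 and Psmb9 depend on the lengths used. Their joined exons have 3381 and 3660 bases, and single transcripts of them 1628 and 1352 bases. Tap1, Tap2, Psmb9 and Erap1 followed at 10.2 to 53.2 RPKM (group means), and most neighbours among them overlapped. Nlrc5, the transactivator, was the lowest member in every group, at 4.03 to 11.2 RPKM.

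**Figure D1:**
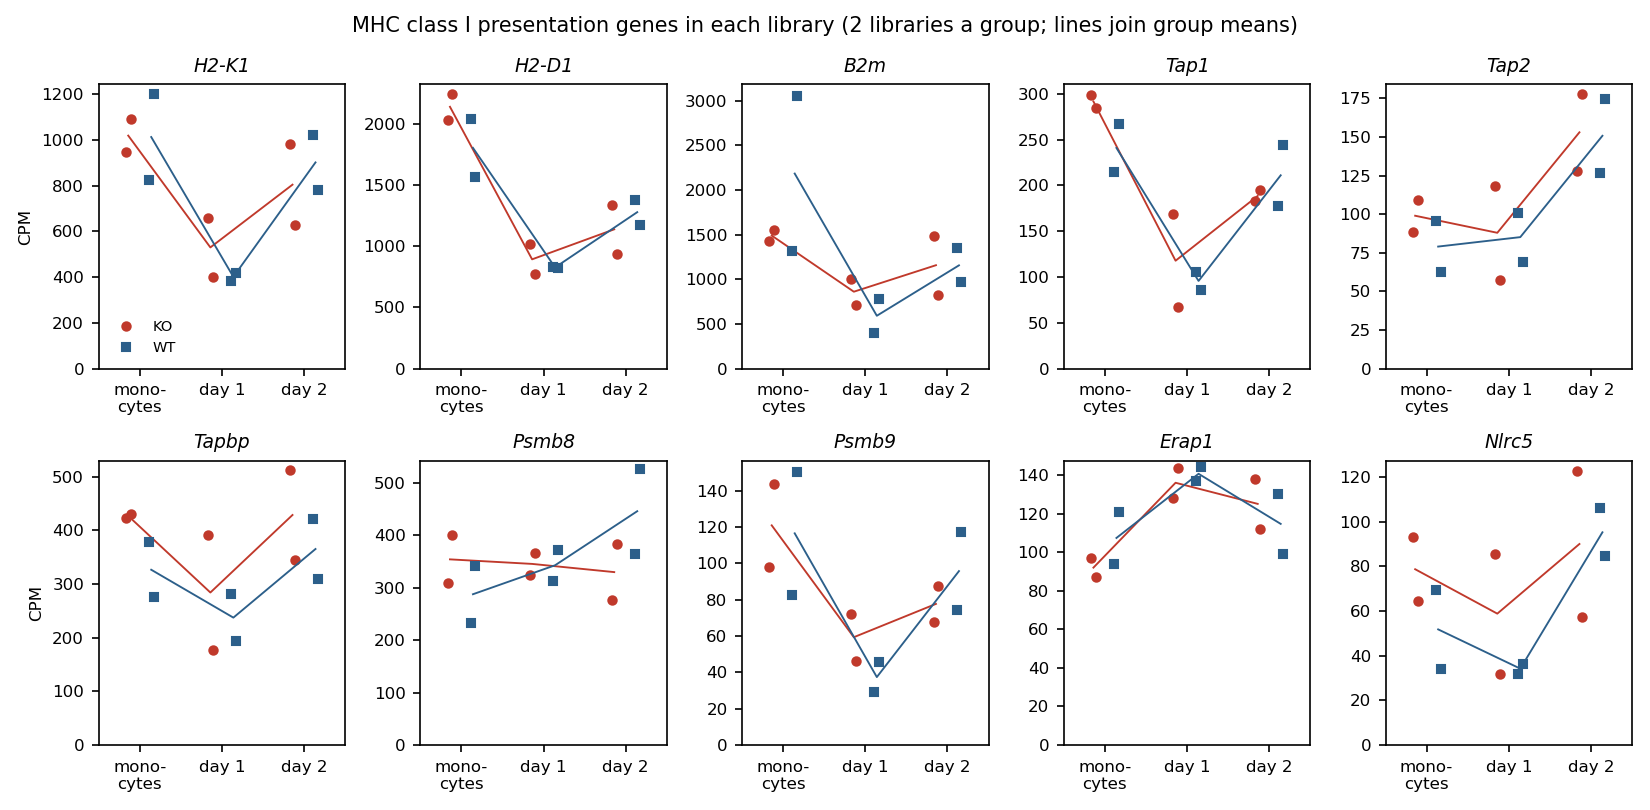
Levels of the 10 members in each of the 12 libraries, in CPM on a linear axis from 0; a panel per gene, stages along the x axis, KO left of WT, points for libraries and lines joining the means of 2 libraries. The group means of H2-K1, H2-D1, B2m, Tap1, Tapbp, Psmb9 and Nlrc5 are lowest at day 1 in both genotypes. That of Tap2 is lowest at day 1 in KO cells only, and those of Psmb8 and Erap1 in neither genotype.

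After the first day of culture the RNA of class I chains and of Tap1 was lower than in monocytes. H2-D1 and Tap1 fell in KO cells, and H2-K1, H2-D1, B2m, Tap1 and Psmb9 fell in WT cells, by 1.13 to 1.89 on the log2 scale. Psmb8, Tap2 and Erap1 did not pass the test in either genotype. Against KO monocytes, 2 of the 10 members fell in KO day 1 cells and none rose, where 6.14% of the 14034 genes tested fell, 7.7% rose and 13.8% did either (edgeR quasi-likelihood test, adjusted p under 0.05). Against WT monocytes, 5 of the 10 fell in WT day 1 cells and none rose, where 10.1% of genes fell, 11.4% rose and 21.5% did either. The median log2 fold change of the members was -0.69 in KO and -0.86 in WT cells, beside 0.11 and 0.06 over all genes. The difference between the genotypes in this change was tested as an interaction, and no member passed it (edgeR, 0 members at an unadjusted p under 0.05 and 0 by DESeq2), where 0% of genes did. In the interaction over the whole 2 days no member passed either, where 0.0285% of genes did, all of them lower.

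H2-K1, a classical class I heavy chain, was at 946 and 1092 CPM in KO monocytes, 660.5 and 399 CPM at KO day 1 and 982 and 627 CPM at KO day 2. The WT libraries had 824 and 1202 CPM as monocytes, 383 and 419.6 CPM after 1 day and 1022 and 782 CPM after 2 days. In both genotypes the day 1 libraries lay below the monocyte libraries without overlap. The log2 fold change from monocytes to day 1 was -0.94 ± 0.36 (SE, adjusted p = 0.106) in KO cells and -1.34 ± 0.36 (adjusted p = 0.0245) in WT cells. The WT value without WT monocytes replicate 2 was -1.07 (adjusted p = 0.0874), and without both libraries that stood apart it passed (adjusted p = 0.0414).

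H2-D1, the other classical heavy chain, was at 2031 and 2248 CPM in KO monocytes, 1016 and 769 CPM at KO day 1 and 1341 and 935 CPM at KO day 2. Among WT cells, monocytes had 2043 and 1563 CPM, day 1 cells 830.1 and 822 CPM and day 2 cells 1380.5 and 1176 CPM. With Tap1 it was called in both genotypes at day 1, where it fell by 1.26 ± 0.31 (adjusted p = 0.0229) in KO cells and by 1.13 ± 0.31 (adjusted p = 0.0260) in WT cells on the log2 scale. Its day 2 libraries also lay below the monocyte libraries in both genotypes.

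B2m, the light chain shared by all class I molecules, had the widest spread of the members, a 7.58-fold range over the 12 libraries. It was at 1429 and 1552 CPM in KO monocytes, 1007 and 715 CPM at KO day 1 and 1489 and 827 CPM at KO day 2. Its WT levels were 1320 and 3051 CPM (monocytes), 402 and 780.3 CPM (day 1) and 1348 and 965 CPM (day 2). The highest value came from WT monocytes replicate 2. The log2 fold change at day 1 was -0.79 ± 0.48 (adjusted p = 0.300) in KO cells and -1.89 ± 0.49 (adjusted p = 0.0214) in WT cells. Without WT monocytes replicate 2 the WT value was -1.20 (adjusted p = 0.106), and without both libraries that stood apart the call was lost too (adjusted p = 0.0821).

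Tap1, the subunit of the peptide pump encoded next to Psmb9, was at 298 and 285 CPM in KO monocytes, 168 and 67.0 CPM at KO day 1 and 182 and 194 CPM at KO day 2. The WT libraries had 215 and 267 CPM as monocytes, 106 and 85.7 CPM after 1 day and 177 and 244 CPM after 2 days. Its log2 fold change at day 1 was -1.31 ± 0.39 (adjusted p = 0.0492) in KO and -1.33 ± 0.39 (adjusted p = 0.0347) in WT cells. The KO call was made in 5 of 9 alternatives. By edgeR it was lost with RLE scaling (adjusted p = 0.0505), upper-quartile scaling (0.0578), unstranded counts (0.0516) and the compared groups alone (0.0866). Without KO day 1 replicate 2 the KO value was -0.784. Removing WT monocytes replicate 2 gave a WT value of -1.20 (adjusted p = 0.103), and removing both libraries that stood apart left it called (adjusted p = 0.0157).

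Tap2, its partner subunit, did not pass the test in either genotype. Tap2 was at 88.6 and 109 CPM in KO monocytes, 119 and 57.3 CPM at KO day 1 and 128 and 178 CPM at KO day 2. Among WT cells, monocytes had 95.3 and 62.6 CPM, day 1 cells 101 and 69.2 CPM and day 2 cells 127 and 175 CPM. Its day 2 libraries were above the libraries of both earlier stages in each genotype, and its log2 fold change at day 1 was -0.17 (adjusted p = 0.818) in KO and 0.11 (adjusted p = 0.882) in WT cells.

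Tapbp, the loading chaperone tapasin, was at 424 and 430.1 CPM in KO monocytes, 391 and 177 CPM at KO day 1 and 512 and 345 CPM at KO day 2. Its WT levels were 378 and 275 CPM (monocytes), 281 and 193 CPM (day 1) and 421 and 309 CPM (day 2). Its WT groups at day 1 and in monocytes overlapped, and neither log2 fold change at day 1 passed (KO -0.59, adjusted p = 0.363; WT -0.46, adjusted p = 0.448).

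Psmb9, the immunoproteasome subunit that replaces PSMB6, was at 98.1 and 144 CPM in KO monocytes, 72.4 and 46.4 CPM at KO day 1 and 67.7 and 87.8 CPM at KO day 2. The WT libraries had 82.8 and 150.4 CPM as monocytes, 29.2 and 45.7 CPM after 1 day and 74.5 and 117 CPM after 2 days. The log2 fold change at day 1 was -1.03 ± 0.40 (adjusted p = 0.115) in KO cells and -1.64 ± 0.41 (adjusted p = 0.0174) in WT cells. Psmb9 thus had the smallest adjusted p of the members in WT cells, but the call was lost without WT monocytes replicate 2 (-1.18, adjusted p = 0.086) and without both libraries that stood apart (adjusted p = 0.0567).

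Psmb8, which replaces PSMB5 in the same particle and lies on the far side of Tap1, did not follow Psmb9. It was at 308 and 399 CPM in KO monocytes, 324 and 366 CPM at KO day 1 and 277 and 382 CPM at KO day 2. Among WT cells, monocytes had 233 and 342 CPM, day 1 cells 313 and 372 CPM and day 2 cells 365 and 527 CPM. Its log2 fold change at day 1 was -0.04 in KO cells (95% confidence interval -0.74 to 0.67) and 0.25 in WT cells (-0.45 to 0.96).

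Erap1, the trimming peptidase outside the MHC, had the narrowest range of the members (1.66-fold) and leaned the other way. It was at 97.1 and 87.0 CPM in KO monocytes, 128 and 144 CPM at KO day 1 and 138 and 112 CPM at KO day 2. Its WT levels were 94.2 and 121 CPM (monocytes), 137 and 145 CPM (day 1) and 131 and 99.0 CPM (day 2). Both day 1 groups lay above their monocytes without overlap, yet the log2 fold changes of 0.56 (adjusted p = 0.170) in KO and 0.39 (adjusted p = 0.306) in WT cells did not pass.

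Nlrc5, the class I transactivator, was at 93.2 and 64.3 CPM in KO monocytes, 85.7 and 32.0 CPM at KO day 1 and 123 and 57.4 CPM at KO day 2. The WT libraries had 69.7 and 34.0 CPM as monocytes, 32.0 and 36.4 CPM after 1 day and 106 and 84.6 CPM after 2 days. The libraries overlapped between monocytes and day 1 in both genotypes, with log2 fold changes of -0.42 (adjusted p = 0.633) in KO and -0.60 (adjusted p = 0.440) in WT cells.

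Leaving out single libraries changed the size of the falls at day 1. In KO cells the log2 fold change of H2-D1 then ranged from -1.519 to -1.066 and that of Tap1 from -2.165 to -0.784. In WT cells it ranged from -1.562 to -1.075 for H2-K1, -1.342 to -0.898 for H2-D1 and -2.42 to -1.196 for B2m. For Tap1 it was -1.495 to -1.174 and for Psmb9 -1.987 to -1.183. Calls were lost in such fits, where the share of all genes called changed too. Without both libraries that stood apart the KO values were -1.43 for H2-K1, -1.55 for H2-D1 and -2.20 for Tap1. They were -1.35 for Tapbp, -1.46 for Psmb9 and -1.37 for Nlrc5. The KO day 1 library left in that fit, replicate 2, was the lowest of the 12 for H2-D1, Tap1, Tap2, Tapbp and Nlrc5. The WT values in that fit were -1.075 for H2-K1, -1.342 for H2-D1, -1.202 for Tap1, -1.196 for B2m and -1.183 for Psmb9. None of the called members changed sign under any alternative. Counted by non-overlap, 6 members were lower at KO day 1 than in KO monocytes in both libraries, where 27.4% of genes were, and 5 were lower at WT day 1 than in WT monocytes, where 24.5% were. Erap1 was higher in both libraries, where 32.4% of genes were in KO and 30.8% in WT cells. Within each experiment the day 1 library was below the monocyte library of its genotype for H2-K1, H2-D1, B2m, Tap1, Tapbp and Psmb9 in both genotypes. In KO cells the difference was smaller in the first experiment, that of the library that stood apart: for Tap1 it was -0.82 against -2.08 in the second experiment, and for Psmb9 -0.44 against -1.63.

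**Figure D2:**
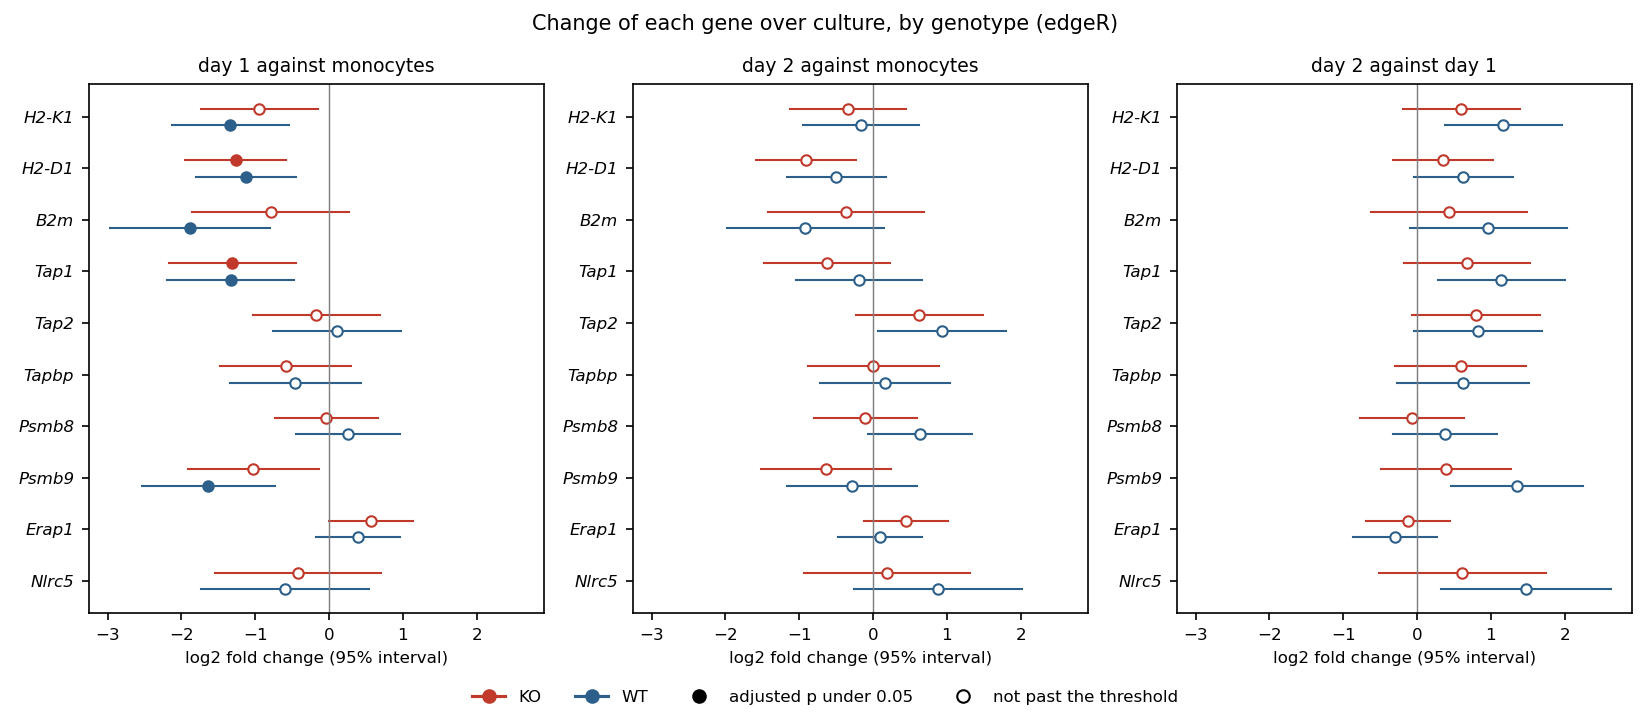
Log2 fold changes of the 10 members between culture stages with 95% confidence intervals, KO drawn above WT; filled points have an adjusted p under 0.05. The filled points are H2-D1 and Tap1 in KO and H2-K1, H2-D1, B2m, Tap1 and Psmb9 in WT cells, all below 0 at day 1 against monocytes.

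From day 1 to day 2 most members had positive log2 fold changes, none of which passed the test. The members' median log2 fold change was 0.51 in KO and 0.90 in WT cells, beside -0.01 and 0.03 over all genes. No member passed in either genotype, where 2.05% of genes passed in KO cells (1.5% higher, 0.542% lower) and 8.19% in WT cells (4.67% higher, 3.51% lower; edgeR). At an unadjusted p under 0.05 there were 0 members in KO and 4 in WT cells. DESeq2 called 0 members in KO cells, where 3.09% of genes rose by that tool, and 4 in WT cells, where 5.66% did. Those 4 were Psmb9 (log2 fold change 1.36, adjusted p = 0.0661), H2-K1 (1.17, adjusted p = 0.0722), Tap1 (1.14, adjusted p = 0.0983) and Nlrc5 (1.48, adjusted p = 0.109). With the replicate pair as a block the same 4 passed, at adjusted p of 0.0221, 0.0271, 0.0492 and 0.0245. In that fit 8.22% of genes rose. Over 8 alternatives the adjusted p ranged from 0.00403 to 0.0755 for Psmb9, 0.00936 to 0.0787 for H2-K1, 0.0127 to 0.106 for Tap1 and 0.00147 to 0.116 for Nlrc5, and with any 1 library left out none of them passed. In WT cells 8 members were higher at day 2 than at day 1 in both libraries, all but Psmb8 and Erap1, where 31.4% of genes were, and Erap1 was lower, where 29.5% were. In KO cells Tap1 and Tap2 were, where 27.2% of genes were, and none was lower, where 26.3% were. Tap1 passed without both libraries that stood apart (log2 fold change 1.5, adjusted p = 0.0269). The interaction of genotype with the step from day 1 to day 2 had no member at an adjusted or an unadjusted p under 0.05 by edgeR and none by DESeq2.

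Measured over the whole 2 days, no member passed in either genotype, where 17.5% of genes did in KO cells (9.95% higher, 7.57% lower) and 22.6% in WT cells (12.7% higher, 9.89% lower; edgeR, with 1 member at an unadjusted p under 0.05 in each). H2-D1 was nearest in KO cells, with a log2 fold change of -0.91 ± 0.31 (adjusted p = 0.0645), and DESeq2 called it. With the replicate block it passed (-0.94, adjusted p = 0.0204), and over 8 alternatives its adjusted p ranged from 0.0189 to 0.12. In WT cells Tap2 was nearest at 0.93 ± 0.39 (adjusted p = 0.111), and it passed with the replicate block (0.94, adjusted p = 0.0361), while DESeq2 called none. Against KO monocytes, Tap2 and Erap1 were higher at KO day 2 without overlap, where 37.5% of genes were, and H2-D1, Tap1 and Psmb9 lower, where 32.2% were. Against WT monocytes, Tap2, Psmb8 and Nlrc5 were higher at WT day 2, where 35.6% were, and H2-D1 lower, where 27.2% were. B2m fell by 1.38 in WT cells only when WT monocytes replicate 1 was left out (adjusted p = 0.0454).

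In the fit over all 12 libraries, which leaves out the pairing, no member was called between KO and WT cells. This held in monocytes, at day 1 and at day 2 (edgeR, 0 members at an unadjusted p under 0.05 and 0 by DESeq2 at each stage), where 0%, 0% and 0.0998% of genes passed. The intervals are wide, so this does not show that the genotypes are alike. In monocytes the log2 fold change, KO over WT, was 0.01 for H2-K1 (95% confidence interval -0.77 to 0.79), 0.25 for H2-D1 (-0.43 to 0.92), -0.55 for B2m (-1.61 to 0.50) and 0.60 for Nlrc5 (-0.53 to 1.74). At day 1 it was 0.40 for H2-K1 (-0.38 to 1.19), 0.67 for Psmb9 (-0.22 to 1.55) and 0.78 for Nlrc5 (-0.36 to 1.92). At day 2, where Nr4a3 itself was high in WT cells, it was -0.17 for H2-K1 (-0.95 to 0.62), 0.00 for B2m (-1.05 to 1.06) and -0.44 for Psmb8 (-1.14 to 0.27). The member medians were 0.26, 0.28 and -0.12 at the 3 stages.

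Taken by experiment, the day 1 values of KO over WT split. In the first pair, that of the library that stood apart, KO was above WT by 1.32 for B2m, 1.42 for Nlrc5, 1.31 for Psmb9, 0.79 for H2-K1 and 0.67 for Tap1 on the log2 scale. In the second pair the 10 members lay between -0.36 and 0.02. Psmb8 was lower in KO than in WT cells in both day 2 pairs, with log2 differences of -0.40 and -0.46, and it passed when only the day 2 groups were fitted with the pair as a block (log2 fold change -0.43, adjusted p = 0.0311), a fit in which 6.49% of 12233 genes were lower and 6.25% higher in KO cells. H2-K1, with -0.06 and -0.32, H2-D1, with -0.04 and -0.33, and Psmb9, with -0.14 and -0.42, were also lower in KO than in WT cells in both day 2 pairs, and that fit did not call them. Tapbp (0.283 and 0.157), Erap1 (0.083 and 0.178) and Tap2 (0.015 and 0.026) were higher in KO cells in both day 2 pairs and were not called either. B2m, Tap1 and Nlrc5 differed in sign between the day 2 pairs. Over the alternatives the adjusted p of Psmb8 ranged from 0.0311 to 1. Tap1 and Tapbp were higher in both KO monocyte libraries than in both WT ones, where 13.3% of genes were, and Psmb9 at day 1, where 10.3% were. No member was lower without overlap in KO monocytes (10.9% of genes) or KO day 1 cells (9.06%), and at day 2 none was higher (17.6%) or lower (20.6%).

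**Figure D3:**
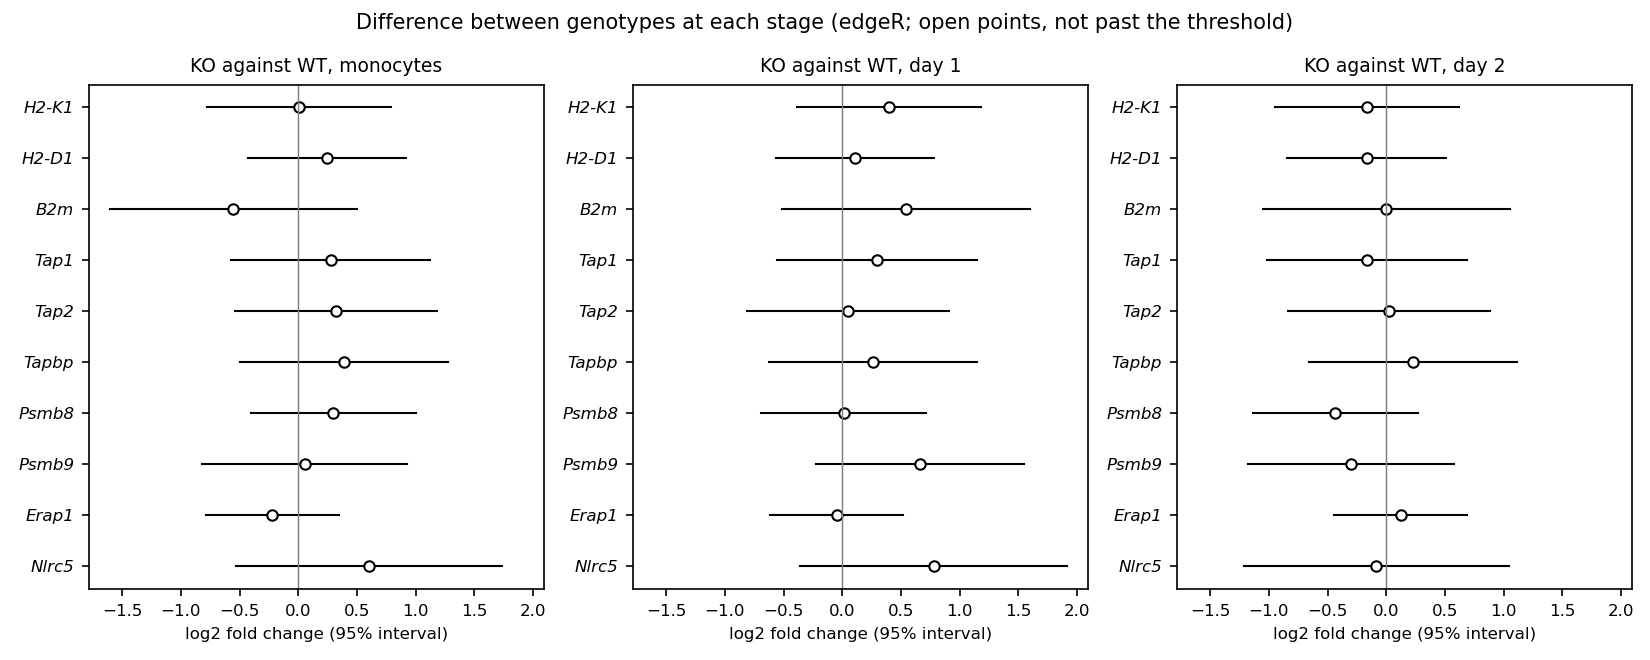
Log2 fold changes of the 10 members in KO over WT cells in monocytes, at day 1 and at day 2, with 95% confidence intervals. Every interval includes 0 and no point is filled, since none had an adjusted p under 0.05.

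Ratios between members, taken per exon length within a library, show which genes moved apart. They were chosen after the levels were seen and carry no test. Psmb8 over Psmb9 was 3.40 and 3.0 in KO monocytes, 4.85 and 8.54 at KO day 1 and 4.43 and 4.71 at KO day 2. WT monocytes had ratios of 3.04 and 2.46, WT day 1 cells 11.6 and 8.82 and WT day 2 cells 5.30 and 4.87. The library that stood apart thus had the lowest ratio of the day 1 libraries. Tap1 over Tap2 was 2.33 and 1.80 in KO monocytes, 0.981 and 0.807 at KO day 1 and 0.984 and 0.755 at KO day 2. The WT ratios were 1.55 and 2.94 in monocytes, 0.722 and 0.855 at day 1 and 0.967 and 0.966 at day 2. Every cultured library was below every monocyte library, at day 2 as at day 1. The lengths used join all annotated exons of a gene (5476 bases for Tap1 and 3781 for Tap2), and single transcripts of 2953 and 3442 bases would raise every Tap1 over Tap2 ratio alike, so whether a ratio is above or below 1 depends on that choice and the change between stages does not.

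The immunoproteasome subunits can also be set against the constitutive subunits whose places they take. Psmb9 over Psmb6 was 0.512 and 0.465 in KO monocytes, 0.235 and 0.0917 at KO day 1 and 0.295 and 0.403 at KO day 2, and 0.411 and 0.364 in WT monocytes, 0.0882 and 0.0934 at WT day 1 and 0.386 and 0.682 at WT day 2. Psmb8 over Psmb5 was 2.27 and 1.40 in KO monocytes, 1.03 and 0.903 at KO day 1 and 1.41 and 1.99 at KO day 2, and 1.76 and 1.10 in WT monocytes, 1.06 and 0.874 at WT day 1 and 1.91 and 2.69 at WT day 2. Both ratios had their lowest group mean at day 1 in each genotype. Psmb10 over Psmb7 did not: it was 2.63 and 2.92 in KO monocytes, 1.91 and 1.04 at KO day 1 and 1.47 and 0.949 at KO day 2. In WT cells it was 2.81 and 2.03 in monocytes, 1.37 and 1.05 after 1 day and 1.28 and 0.835 after 2 days, with the lowest mean at day 2 in both genotypes. Psmb5, Psmb6 and Psmb7 were called in no comparison over the 12 libraries, and their 3 log2 fold changes from day 1 to day 2 were negative in both genotypes (median -0.86 in KO and -0.90 in WT cells). When both libraries that stood apart were left out, Psmb5 rose at WT day 1 (1.41, adjusted p = 0.046) and Psmb6 fell from WT day 1 to WT day 2 (-1.19, adjusted p = 0.0188). H2-K1 over H2-D1 was 0.643 and 0.589 at KO day 2, against 0.409 and 0.427 in KO monocytes, and 0.650 and 0.584 at WT day 2, against 0.354 and 0.675 in WT monocytes.

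**Figure D4:**
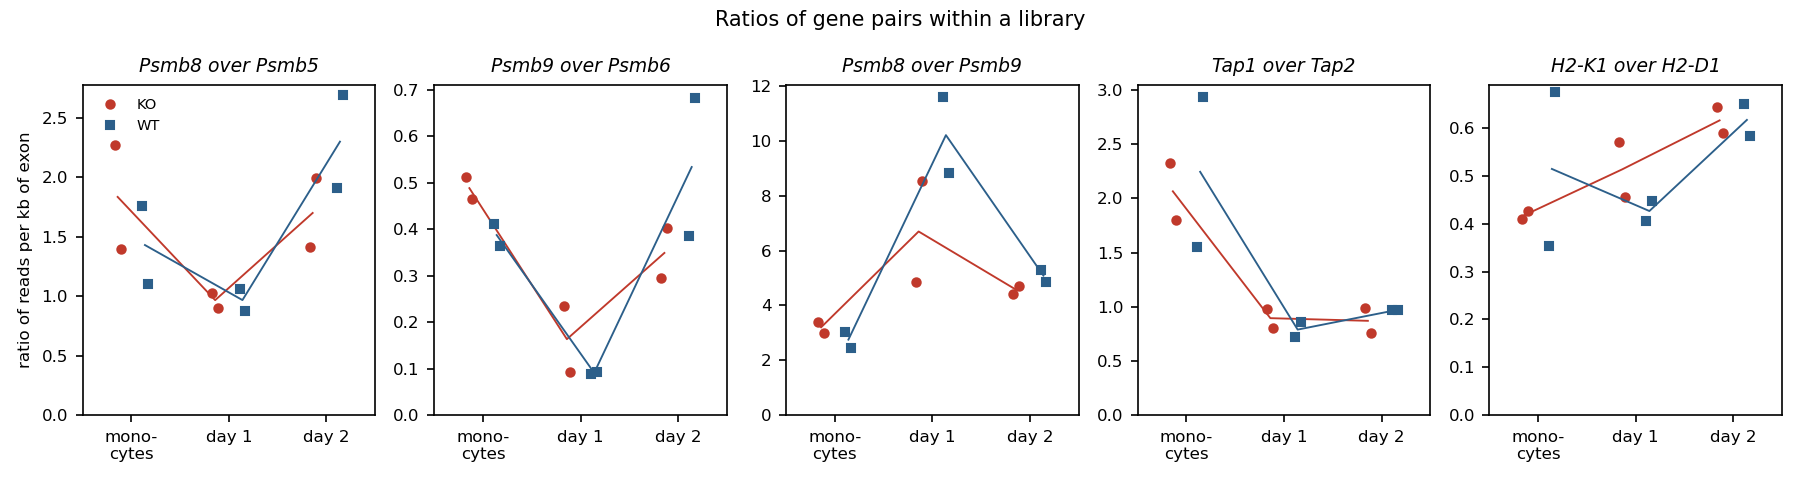
Ratios between pairs of genes per exon length in each library, on linear axes from 0, stages along the x axis and KO left of WT. Psmb8 over Psmb9 is highest at WT day 1 (11.6 and 8.82), and Tap1 over Tap2 is lower in every cultured library (0.722 to 0.984) than in every monocyte library (1.55 to 2.94).

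Around the members, most other class I chains did not pass the test at day 1. Of 15 nonclassical and class I-like chains tested, 1 fell at KO day 1 against KO monocytes, where 6.14% of all genes fell, and 4 fell at WT day 1 against WT monocytes, where 10.1% did, and none rose. They were H2-M3 in KO cells (log2 fold change -0.95, adjusted p = 0.0308) and H2-T22 (-1.74, adjusted p = 0.0112), H2-T23 (-1.85, adjusted p = 0.0112), H2-T10 (-2.29, adjusted p = 0.0327) and H2-M3 (-0.84, adjusted p = 0.0372) in WT cells. H2-M3 presents formylated peptides, and H2-T23 encodes Qa-1, the ligand of the inhibitory receptor NKG2A. The list's median was -1.19 in KO and -0.92 in WT cells (-1.11 in KO cells with genes that had a group at 0 set to their bound). H2-T23 was at 284 and 252 CPM in KO monocytes, 162 and 59.3 CPM at KO day 1 and 201 and 142 CPM at KO day 2, and at 285 and 263 CPM in WT monocytes, 68.1 and 84.2 CPM at WT day 1 and 228 and 210.4 CPM at WT day 2. Its WT day 2 values lay above its WT day 1 values, and H2-T23 (1.52, adjusted p = 0.0462), H2-Q6 (2.91, adjusted p = 0.0243), H2-Q7 (2.92, adjusted p = 0.0456) and H2-M2 rose in WT cells from day 1 to day 2, where 4.67% of genes rose. Without both libraries that stood apart 4 fell in KO day 1 cells, where 10.6% of genes did, and 3 in WT day 1 cells, where 11% did. With 1 library left out 0 to 2 fell in KO cells and 0 to 4 in WT cells, none without WT day 1 replicate 1 and none if either of the KO monocyte libraries was removed. Of the rises after WT day 1, 1 was called without WT day 2 replicate 2 and none without any of the other libraries of that comparison.

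H2-M2, a class Ib heavy chain, appeared at day 2. It had 0 reads in every monocyte and day 1 library and was at 162 and 15.7 CPM in KO and at 135 and 20.7 CPM in WT day 2 cells. The level differed widely between experiments and little between genotypes. Against a floor of 3 reads over a group it was at least 830-fold higher in KO day 2 cells than in KO monocytes and at least 585-fold higher in WT day 2 cells than in WT monocytes (adjusted p = 0.0132 and 0.0127). Fcgrt, the neonatal Fc receptor, also pairs with beta-2-microglobulin and rose in KO cells from day 1 to day 2 (1.95, adjusted p = 0.0371), while its level at WT day 2 was 65.6 and 123 CPM. Against KO monocytes neither H2-M2 nor Fcgrt was called at KO day 2 if either of the KO monocyte libraries was removed.

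Among the loading chaperones, calreticulin and ERp57 rose at day 1, and most of the list did not pass. Of 9 genes, Calr (1.60, adjusted p = 0.00629) and Pdia3 (0.98, adjusted p = 0.0381) rose and the TAPBPR gene Tapbpl fell (-1.39, adjusted p = 0.0372) at KO day 1. At WT day 1 Calr (1.98, adjusted p = 0.00163) and Pdia3 (1.18, adjusted p = 0.0128) rose. Over all genes 7.7% rose and 6.14% fell at KO day 1, and 11.4% rose and 10.1% fell at WT day 1. The list's median was -0.13 in KO and -0.01 in WT cells. Tapbpl fell at WT day 1 too without both libraries that stood apart (-1.37, adjusted p = 0.00725). Calreticulin and ERp57, their products, belong to the peptide loading complex but serve all folding glycoproteins. Calr was at 2125 and 1971 CPM at KO day 1, against 625 and 731 CPM in KO monocytes, and at 2433 and 1804 CPM at WT day 1, against 476 and 602 CPM in WT monocytes. From WT day 1 to WT day 2 Calr (-1.23, adjusted p = 0.0309), Pdia3 (-1.12, adjusted p = 0.0333) and Erp29 (-1.14, adjusted p = 0.0302) fell and Tapbpl rose (1.43, adjusted p = 0.0470). Over all genes 3.51% fell and 4.67% rose in that step. Canx, the calnexin gene, was at 680.1 and 895 CPM at KO day 1, against 511 and 466 CPM in KO monocytes, and did not pass. In KO cells none of these calls at day 1 was made without KO monocytes replicate 1 or without KO monocytes replicate 2. None of the WT calls from day 1 to day 2 was made with any 1 of those 4 libraries left out.

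In the rest of the proteasome few genes passed the test. Over all genes 7.57% fell at KO day 2 against KO monocytes and 9.89% at WT day 2 against WT monocytes. Of the immunoproteasome and PA28 partners, Psmb10 fell at day 2 against monocytes, by 1.61 in KO (adjusted p = 0.00771) and by 1.63 in WT cells (adjusted p = 0.00586), where Psmb8 and Psmb9 did not pass. It was at 71.2 and 49.7 CPM at KO day 2, against 149 and 219 CPM in KO monocytes, and at 67.6 and 51.3 CPM at WT day 2, against 145 and 223 CPM in WT monocytes. The KO call was lost without KO monocytes replicate 2 or KO day 2 replicate 2, and the WT call without WT day 2 replicate 2. Psme1 and Psme2, subunits of the PA28 activator, were called in no comparison over the 12 libraries. Of 11 other 20S subunits, Psma7 fell at WT day 2 against WT monocytes (-1.69, adjusted p = 0.0235), with 998 CPM in WT monocytes replicate 2 and 348 CPM in replicate 1. None of the 11 fell without WT monocytes replicate 2, WT day 2 replicate 1 or WT day 2 replicate 2, and 6 fell if WT monocytes replicate 1 was the library left out. From day 1 to day 2 the log2 fold changes of all 11 were negative in both genotypes, with a median of -0.71 in KO and -0.76 in WT cells, and none passed. Without both libraries that stood apart Psmb2, Psmb3, Psmb4, Psma4 and Psma5 fell from WT day 1 to WT day 2, where 8.92% of genes did, and Psmb3 and Psmb4 from KO day 1 to KO day 2, where 3.52% did. Psma3 and Psma4 then rose at day 1 in both genotypes, where 11.6% of genes did in KO and 9.08% in WT cells.

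The factors that act on class I promoters did not move as a group. In KO day 1 cells 1 rose and 1 fell, where 7.7% of all genes rose and 6.14% fell. In WT day 1 cells 1 rose and 3 fell, where 11.4% of all genes rose and 10.1% fell. Of 17 genes, Ciita, the class II transactivator and a relative of Nlrc5, rose at day 1 by 5.31 in KO (adjusted p = 8.88e-05) and by 6.21 in WT cells (adjusted p = 4.2e-05), to 373 and 263 CPM at KO day 1 and 412 and 222 CPM at WT day 1. Irf8 fell by 3.42 in KO (adjusted p = 0.042), and its WT log2 fold change was -5.19 (adjusted p = 0.00751), and in WT cells also Irf9 (-1.45, adjusted p = 0.0315) fell. Irf8 was at 455 and 562 CPM in KO monocytes, 85.9 and 9.63 CPM at KO day 1 and 52.7 and 7.53 CPM at KO day 2, and at 560.2 and 484 CPM in WT monocytes, 12.3 and 16.2 CPM at WT day 1 and 263 and 157 CPM at WT day 2. It rose from day 1 to day 2 in WT cells (3.88, adjusted p = 0.0407), and its KO value was -0.68 (adjusted p = 0.772), and the interaction for this step called no gene of the list (edgeR, lowest adjusted p = 1.0). The higher KO day 1 value of Irf8 was that of the library that stood apart. Irf1, named here after its values were seen, was at 110 and 37.5 CPM at KO day 1 and at 25.8 and 45.3 CPM at WT day 1. Rfx5, Nfya and Creb1, parts of the enhanceosome, were not called at day 1 in either genotype. Without both libraries that stood apart 6 of the 17 fell in KO and 4 in WT day 1 cells, with Ciita the 1 that rose in each. With 1 library left out 4 of the 17 fell at KO day 1 without KO day 1 replicate 1 and none without any of the other KO libraries of that comparison. At WT day 1 none fell without WT day 1 replicate 1 and 1 without each of the others. No call from WT day 1 to day 2 was made with any 1 of its libraries left out.

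Interferon-gamma is the main inducer of this pathway, and other targets of it were taken as a list. Of 14 GTPases and chemokines, 7 fell at WT day 1 against WT monocytes, where 10.1% of all genes fell, and none rose, with a median log2 fold change of -2.93. They included Ifi47 (-3.62, adjusted p = 0.00919), Tgtp2 (-4.92, adjusted p = 0.00987) and Iigp1, which had 0 reads at WT day 1 and was at least 39.9-fold lower than in WT monocytes (adjusted p = 0.0163). At KO day 1 none was called (edgeR, 4 at an unadjusted p under 0.05 and 3 by DESeq2), and the median was -1.19. Without both libraries that stood apart 5 fell in KO cells (median -2.74), where 10.6% of genes did, and 5 in WT cells (median -2.80), where 11% did. With 1 library left out 3 fell in WT cells if WT monocytes replicate 2 was removed, 2 if WT day 1 replicate 1 was and 3 if replicate 2 of that stage was, and 4 fell in KO cells without KO day 1 replicate 1. Ifi47 was at 40.1 and 11.5 CPM at KO day 1, against 85.1 and 94.7 CPM in KO monocytes, and at 2.48 and 13.7 CPM at WT day 1, against 94.3 and 105 CPM in WT monocytes. The difference between the genotypes was not called for any of the 14 in the interaction test (edgeR, 3 at an unadjusted p under 0.05). Gbp2 and Irgm1, the most abundant that did not pass in KO cells, were at 36.8 and 16.6 CPM and at 83.0 and 15.4 CPM at KO day 1. At day 2 against monocytes 1 of the 14 fell in KO cells, where 7.57% of genes did, and 4 in WT cells, where 9.89% did.

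Of 9 genes for interferon receptors and their signalling, 2 rose and 1 fell at KO day 1, where 7.7% of all genes rose and 6.14% fell. In WT day 1 cells 2 rose and 2 fell, where 11.4% of all genes rose and 10.1% fell. Ifngr1, the ligand-binding chain of the interferon-gamma receptor, fell at day 1 by 1.95 in KO (adjusted p = 0.016) and by 2.37 in WT cells (adjusted p = 0.00471). It was at 133 and 70.2 CPM at KO day 1, against 420.2 and 363 CPM in KO monocytes, and at 74.8 and 68.1 CPM at WT day 1, against 395 and 345 CPM in WT monocytes. Socs1, which inhibits JAK kinases, rose by 4.79 in KO (adjusted p = 0.000564) and by 5.65 in WT cells (adjusted p = 0.000233), and Jak2, the kinase bound to the IFNGR2 chain, by 2.77 (adjusted p = 0.00158) and 3.08 (adjusted p = 0.000699). Ifnar2 fell in WT cells (-1.61, adjusted p = 0.00886). At day 2 against monocytes 2 of the 9 rose and 2 fell in each genotype. Over all genes 9.95% rose and 7.57% fell in KO cells, and 12.7% and 9.89% in WT cells. None of the 9 changed from day 1 to day 2 (edgeR, with 1 called by DESeq2 in each genotype). With any 1 library left out, 2 of the 9 genes rose at day 1 in each genotype, while Ifngr1 in KO cells was not called without KO monocytes replicate 1, KO monocytes replicate 2 or KO day 1 replicate 2. In WT cells 1 of the 9 fell if either of the WT day 1 libraries was removed. No gene of these lists was called between KO and WT cells at any stage (edgeR, 12 libraries), while the day 2 groups fitted alone with the pair as a block called 1 to 3 genes in each of 7 lists, in a fit where 6.49% of all genes were lower and 6.25% higher in KO cells. The markers of other cell types changed with the culture stages too. Neutrophil markers summed to 1290 to 4520 CPM in monocytes, 901 to 2150 CPM at day 1 and 516 to 1810 CPM at day 2. Erythroid markers summed to 34.0 to 179, 0 to 0.571 and 17.3 to 110 CPM at these stages, those of plasmacytoid dendritic cells to 0 to 5.67, 0.346 to 2.94 and 25.5 to 48.7 CPM and those of stroma and endothelium to 27.8 to 36.9, 2.68 to 10.7 and 3.92 to 10.7 CPM. Genes of the neutrophil sum went in opposite directions. Cxcr2 was at 0.922 to 2.43 CPM in monocytes and 158 to 496 CPM at day 2. Elane, Mpo and Prtn3 were at 112 to 261 CPM in monocytes and at most 5.48 CPM at day 2. Most of the stroma and endothelium sum in monocytes was Pecam1 (20.7 to 24.1 CPM). Most of the plasmacytoid sum at day 2 was Pacsin1 alone (24.3 to 39.0 CPM). Siglech, Ly6d and Ccr9 reached at most 0.667, 1.5 and 7.5 CPM there. Markers of B cells and of T and NK cells reached at most 16.1 and 10.0 CPM. Their part in the results was not tested.

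**Figure D5:**
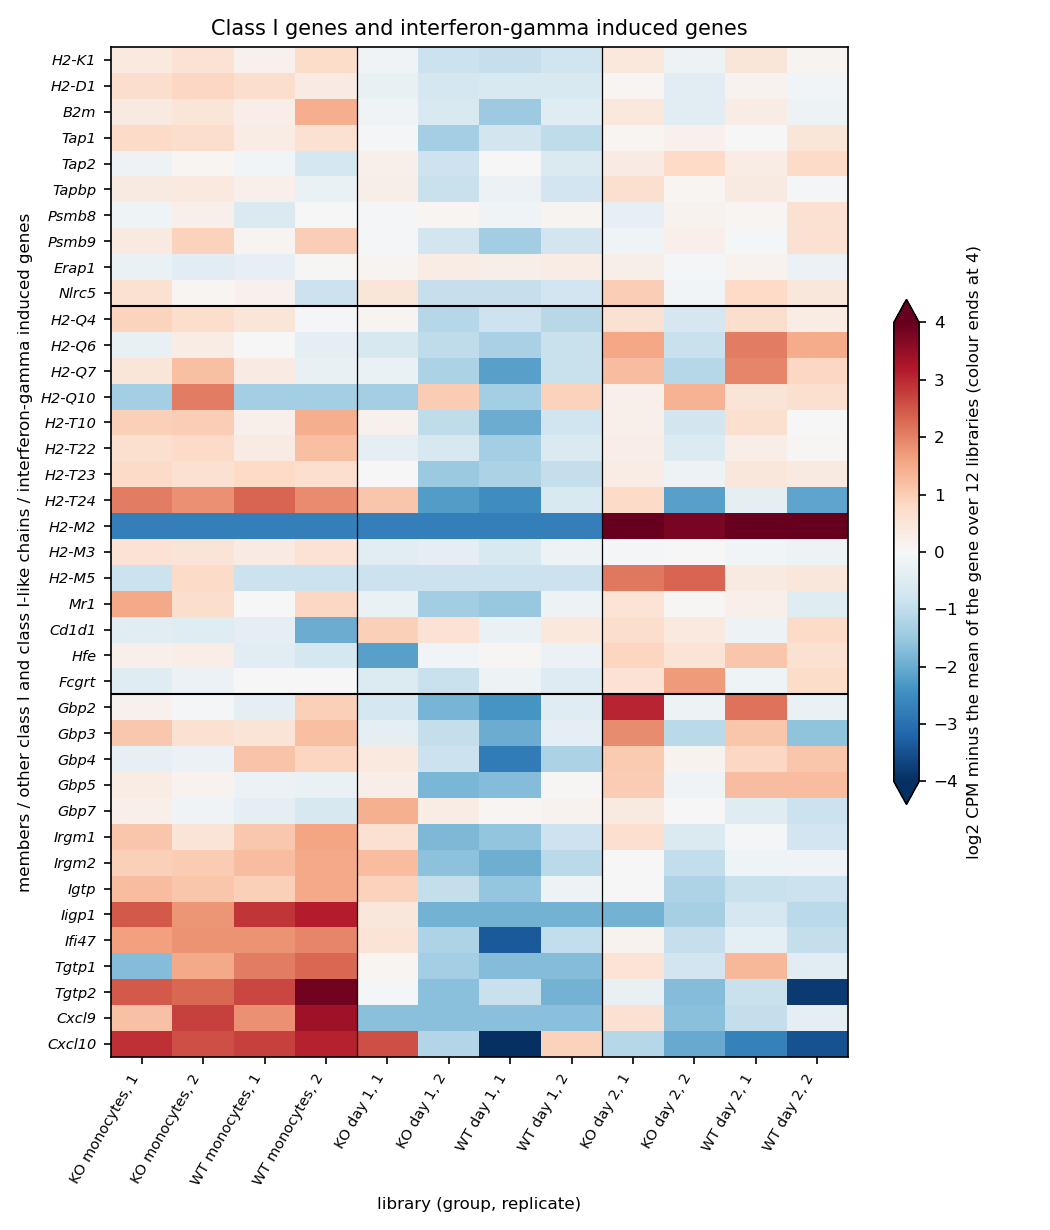
Log2 CPM of the members, the other class I chains and the interferon-gamma induced genes in each library, minus the mean of the gene over the 12 libraries; columns run by stage with KO left of WT, and the colours end at -4 and 4. H2-K1, H2-D1, B2m, Tap1 and Psmb9 are low in the day 1 columns, least so in KO day 1 replicate 1.

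Over the 12 libraries the members did not follow a single pattern. The 45 pairs had a median Pearson r of log2 CPM of 0.37, with 13 pairs over 0.7 and 15 under 0. The highest were H2-K1 with B2m (0.901), H2-K1 with Tap1 (0.880), Tap1 with Psmb9 (0.868), Tapbp with Nlrc5 (0.850) and H2-K1 with H2-D1 (0.844), and the lowest Tap1 with Erap1 (-0.791) and H2-D1 with Erap1 (-0.780). These are descriptions over 12 libraries that share stages, depths and experiments. Among 11574 other genes, some of those most like a member were Hbp1 for H2-K1 (0.982), Znrf1 for H2-D1 (0.978), Gbe1 for B2m (0.970), Btbd2 for Tap1 (0.98), Zdhhc8 for Tap2 (0.959), Ctns for Tapbp (0.955), Ndufaf4 for Erap1 (0.943) and Trim25 for Nlrc5 (0.935). Psmb8 had no close match, with Ciao1 at 0.824. Of the 3 genes most like B2m, H2-T22 (0.965) is itself a class I chain.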

How the data were processed

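Each library's deposited file holds raw counts per Ensembl gene ID for both strands together and for each strand, made by the authors with STAR 2.5.1b after Trimmomatic 0.35 on GRCm38, per the submitters' processing notes. For the annotation release the sources used here give no name. Per the labels' protocols, polyA RNA libraries were made with a stranded KAPA kit from 20 ng total RNA with 16 PCR cycles. The counts of the strand in column 4 were used. Rows that name no gene (unmapped 2.65 to 7.91%, multimapping 5.29 to 8.94%, no feature 5.24 to 11.2%, ambiguous 1.34 to 1.76%) were left out. GENCODE M21 gave a symbol to 47224 of the 47643 IDs, and the union of exons gave lengths for RPKM. Sequences are from RefSeq GRCm38.p6.

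Genes passing filterByExpr (14034) were tested with edgeR 4.0.16 (TMM, quasi-likelihood F test, robust, a mean per group over the 12 libraries, 6 residual degrees of freedom, Benjamini-Hochberg adjustment; R 4.3.3), after a check on simulated data. Intervals are 95%. Alternatives were RLE and upper-quartile scaling, no filter, a replicate block, DESeq2 1.42.0, unstranded counts, the compared groups alone, leaving out libraries and, chosen after seeing the data, the compared groups with the block. Same-numbered libraries of a stage carry the same date in the deposited file names and are paired. Their deviations correlated at 0.236 (monocytes), 0.194 (day 1) and 0.657 (day 2). The names of the day 1 replicate 2 files give 16 hours where the labels give 1 day.

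The members and lists were chosen with earlier results of these data known. Each list named at most 3 called genes, by adjusted p, and at most 2 abundant uncalled ones. Others (H2-M3, Irf1, H2-M2, Ifnar2, Rfx5, Nfya, Creb1, Psme1, Psme2, Irgm1, Lnpep, Npepps, Wdfy4) were named after their values were seen. Some genes are not reported here. Figures used matplotlib 3.10.9.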

Additional observations from a re-analysis of the deposited data

Results flagged for a closer look

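Reads on the strand opposite to Psmb9 were looked at because the comparisons use the other strand alone. They made up 1.97 to 11.8% of the reads on both strands of the gene (17 to 127 reads per library), highest in WT day 1 replicate 1, and were above the share over all genes in 10 of the 12 libraries. For the other 9 members the highest share was 4.28%. Exons of Tap1 lie on that strand and overlap exons of Psmb9, and their part in these reads was not tested.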

How the results depend on the processing

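Over 1640 member differences recomputed under an alternative, 1574 stayed on the same side of the threshold, 31 calls were lost, 35 were gained and no called difference changed sign. Another 138 differences called under neither setting did, the largest of them 0.86 on the log2 scale. Members called at KO day 1 against KO monocytes (2) were 1 with RLE scaling, upper-quartile scaling, unstranded counts, the compared groups alone and those groups with the replicate block, 2 with the block alone, 3 with no filter and DESeq2, and 6 without both libraries that stood apart. At WT day 1 against WT monocytes (5) they were 0 with the compared groups alone and 3 without both libraries. From WT day 1 to day 2 (0) the count was 4 with no filter, the replicate block, DESeq2 and the compared groups alone. In these fits 5.87%, 8.22%, 5.66% and 9.04% of genes rose. At KO day 2 against KO monocytes (0) it was 1 with the replicate block, DESeq2, unstranded counts and the compared groups alone. In these fits 11.5%, 5.74%, 8.06% and 13.4% of genes fell. At WT day 2 against WT monocytes (0) it was 1 with the replicate block, where 16.5% of genes rose. For KO against WT at day 2 (0) it was 1 with the compared groups and the block, where 6.49% of genes were lower in KO cells. With 1 library left out the counts ranged from 0 to 2 at KO day 1, 0 to 4 at WT day 1 and 0 to 1 at WT day 2 against monocytes, and were 0 elsewhere; the lone library of a group is then assumed to vary like the others. The replicate block changed no other call, and the cause of these changes was not tested. With 2 libraries a group the intervals are wide, so a member that was not called may still differ.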

Other observations

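Some genes that feed class I by other routes also changed with culture. Of 11 tested, 1 was called at KO day 1, where 13.8% of all genes were, and 4 at WT day 1, where 21.5% were. Of 11 cross-presentation genes tested, Batf3, a transcription factor of cross-presenting dendritic cells, rose at day 1 in KO (log2 fold change 4.05, adjusted p = 0.0157, edgeR) and WT cells (4.08, adjusted p = 0.0108). It was at 10.6 and 125 CPM at KO day 1, against 3.21 and 4.96 CPM in KO monocytes, and at 82.8 and 135 CPM at WT day 1, against 3.98 and 8.96 CPM in WT monocytes, so the library that stood apart was the lowest of the day 1 libraries. Cybb, the catalytic subunit of the phagocyte NADPH oxidase, fell at WT day 1 (-3.40, adjusted p = 0.0499) and was at 990 and 265 CPM at KO day 1, 225 and 273 CPM at WT day 1 and 2153 to 2994 CPM in the monocyte libraries. Wdfy4, which is needed for cross-presentation in mice, was called in no comparison over the 12 libraries and was at 767 and 2259 CPM at KO day 2 and 433 and 1216 CPM at WT day 2. In KO day 1 cells no gene of the list was called without KO monocytes replicate 1, KO monocytes replicate 2 or KO day 1 replicate 2, and the WT call of Cybb was lost if either of the WT day 1 libraries was removed.

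Of 7 cytosolic and endosomal peptidases, which trim or destroy peptides before TAP, Lap3 rose at day 1 by 1.88 in KO (adjusted p = 0.0185) and by 1.88 in WT cells (adjusted p = 0.0133), and Thop1 by 1.28 (adjusted p = 0.0198) and 1.94 (adjusted p = 0.00216). Over all genes 7.7% rose at KO day 1 and 11.4% at WT day 1. Thop1 was at 32.6 and 32.0 CPM at KO day 1, against 13.9 and 12.6 CPM in KO monocytes, and at 53.3 and 38.8 CPM at WT day 1, against 11.4 and 12.6 CPM in WT monocytes. Lap3 stayed higher at day 2 than in monocytes, by 1.87 in KO (adjusted p = 0.0153) and 1.99 in WT cells (adjusted p = 0.00955), and Thop1 fell from WT day 1 to WT day 2 (-1.33, adjusted p = 0.0262). At KO day 1 no peptidase was called without KO monocytes replicate 1, KO monocytes replicate 2 or KO day 1 replicate 2, and 1 was without KO day 1 replicate 1. Lnpep, the endosomal aminopeptidase IRAP, and Npepps were called in no comparison over the 12 libraries. Without both libraries that stood apart Lnpep (0.69, adjusted p = 0.0363) and Npepps (0.67, adjusted p = 0.0471) rose at KO day 2 against KO monocytes, where 13.4% of genes did, and Npepps from WT day 1 to WT day 2 (0.80, adjusted p = 0.0324), where 8.89% did.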
